A study of Mus musculus with 20 samples.

Results

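In mouse embryonic stem (ES) cells, 2890 regions away from H3K4me3 carried H3K4me1 with little H3K27ac and little p300. They were found in bins of 1 kb on chromosomes 1 to 19, where the level (RPM) is the number of distinct reads in a bin per M distinct reads of the library. A bin counted as distal where H3K4me3 was under 1.5 RPM in ES cells and in liver, in the bin and in both neighbours. A distal bin was kept where the mean of the ES H3K4me1 libraries was at least 2 RPM and at least 2 times the sum of ES H3 and 0.1, where H3K27ac was under 0.7 RPM in each ES library and where p300 was under 1 RPM in each ES library. Kept bins with at most 1 kb between them were joined. The rule kept 3146 bins, which are 4.25% of the 73951 distal bins with ES H3K4me1, and those 73951 bins joined into 34376 regions in all. The ES libraries of H3K4me1, H3K27ac, p300, H3 and H3K4me3 and the liver H3K4me3 library are thus the ones the regions were chosen by, and their levels there are a description and carry no test.

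H3K4me1 is a methyl mark laid down at enhancers and on the flanks of promoters, and it can be present before or without enhancer activity. H3K27ac is an acetyl mark written by p300 and its relative CBP that accompanies active enhancers and promoters. Distal elements with H3K4me1 and no H3K27ac are commonly called poised or primed enhancers, and in ES cells part of them gain H3K27ac when the cells differentiate.

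The series held 20 sequencing libraries. All were of chromatin immunoprecipitation (ChIP-seq) except those of input DNA from liver and from ES cells. A single induced pluripotent stem (iPS) line, O6, made from mouse embryonic fibroblasts (MEFs) and grown for 2 passages without feeder cells, gave 1 H3K4me1 library. Neural progenitor cells (NPCs), grown out of embryoid bodies of 4 days from cells of the 129JAE-C57/B6 background, gave 1 H3K27ac and 1 Rfx1 library. Whole perfused liver gave 1 library each of H3K4me1, H3K27ac, H3, H3K4me3 and whole cell extract (WCE, input DNA), and MEFs gave 1 of H3K4me1 and 1 of H3. ES H3K4me1 replicate 1 came from V6.5 cells after 2 passages without feeders, replicate 2 from V6.5 cells with the dox-inducible 4F2A transgene after 1 passage, and replicate 3 from the inbred C57BL/6 line j21 after 1 passage. V6.5 is of the 129JAE-C57/B6 background. The 2 H3K27ac libraries, H3 and H3K4me3 came from V6.5 cells after 1 passage, and the 2 p300 libraries and WCE from V6.5 cells after 2. ES and iPS cells had been grown on irradiated MEFs before those passages, liver is a tissue of several cell types, and the age and genotype of the liver and MEF donors are not stated in the labels. The cell types were not checked by marker genes here, because no gene annotation of the files' build was used.

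Distinct reads per library ran from 0.705 M for NPC Rfx1 to 14.5 M for MEF H3K4me1. A level of 2 RPM in a 1 kb bin corresponded to 20.2, 19.1 and 12.5 reads in ES H3K4me1 replicates 1 to 3, and to 4.64 reads in iPS H3K4me1, 14.8 in liver H3K4me1, 28.9 in MEF H3K4me1, 13.9 in NPC H3K27ac and 10.2 in liver H3K27ac. The iPS library was thus the shallowest of the H3K4me1 libraries. Repeated reads made up 70.0% of the ES H3K4me3 library, which left 2.37 M distinct reads to define what is distal. Intervals below are Wilson 95% intervals. They cover counting error only. They hold no variation between libraries, and neighbouring regions are not independent.

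The regions were small and weakly marked. Of the 2890 regions, 2685 (92.9%) consisted of 1 bin, 174 of 2 bins and 31 of 3 or more. Their median H3K4me1 level was 2.38, 2.20 and 2.55 RPM per kb in ES replicates 1 to 3, against 3.46, 3.88 and 4.31 at 10254 distal regions with ES H3K4me1, H3K27ac and p300 of at least 1.5 RPM in each library, called acetylated regions with p300 below. At 874 regions with p300 of at least 1.5 RPM and H3K27ac under 0.7 in each ES library it was 2.47, 2.52 and 2.87. Of those 874, 98.3% consisted of 1 bin, and of acetylated regions with p300, 73.5% did. Neither small size nor a weak mark is thus particular to the 2890 regions. At the 2890 regions median H3K27ac was 0.451 and 0.352 RPM per kb in the 2 ES libraries, against 3.66 and 3.41 at acetylated regions with p300. Median p300 was 0.567 and 0.597 RPM per kb, against 3.05 and 2.74 there. At the H3K4me1-only regions the p300 medians lay next to the 0.564 RPM per kb of ES WCE and the 0.521 of ES H3. The rule keeps p300 under 1 RPM in these same libraries, so that closeness is partly set by the choice.

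**Figure D1:**
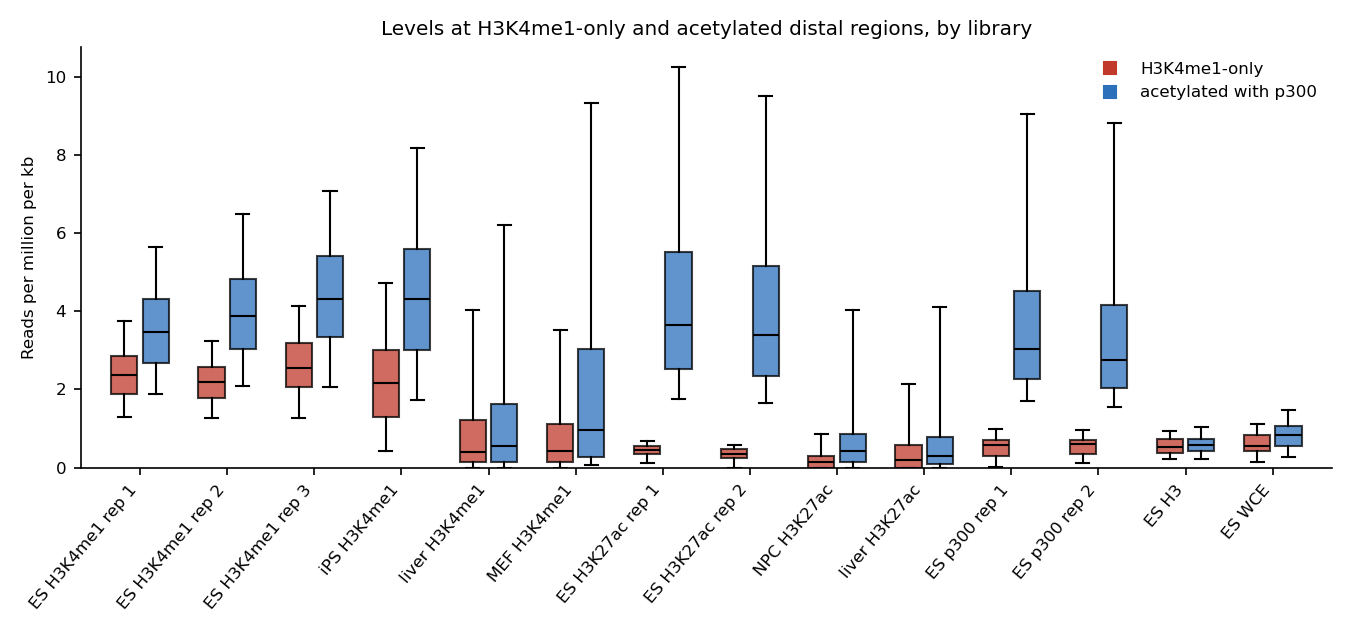
RPM per kb (y axis) at the 2890 H3K4me1-only regions (red) and at 10254 acetylated regions with p300 (blue) in 14 libraries (x axis). Boxes span the quartiles with the median as a line, and whiskers run from the 5th to the 95th percentile; the H3K4me1-only regions have medians of 2.38, 2.20 and 2.55 in the ES H3K4me1 libraries, 2.15 in iPS cells, 0.405 in liver and 0.415 in MEFs.

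Many of these bins sat close to the limits that chose them. Of the 3146 kept bins, 1115 had a mean ES H3K4me1 between 2 and 2.2 RPM, while 1825 bins that met the other limits fell between 1.8 and 2 RPM. The higher of the 2 H3K27ac libraries lay between 0.63 and 0.7 RPM in 596 kept bins, and between 0.7 and 0.77 in 433 bins that missed only this limit. For p300 the corresponding numbers were 599 bins between 0.9 and 1 RPM and 290 bins between 1 and 1.1 RPM. The nearest values on either side were 0.676 and 0.705 RPM for H3K27ac and 0.992 and 1.07 RPM for p300.

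A library that took no part in the choice gave a measure of how far each property held. When ES H3K4me1 replicate 1, 2 or 3 was left out of the rule, 3482, 3985 and 2810 regions were chosen. The left-out library had a median of 1.78, 1.78 and 1.91 RPM per kb at them. Over all distal bins its median was 0.0990, 0.105 and 0, and its mean 0.323, 0.314 and 0.312. The left-out library met the H3K4me1 limit by itself at 38.7% (37.1 to 40.4), 34.7% (33.2 to 36.2) and 43.8% (42.0 to 45.6) of the regions. The iPS library, at the same regions, met it at 54.4%, 51.1% and 54.7%, against 42.2%, 40.0% and 45.5% in the left-out ES library thinned to the iPS depth, an alternative chosen after seeing the data.

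**Figure D2:**
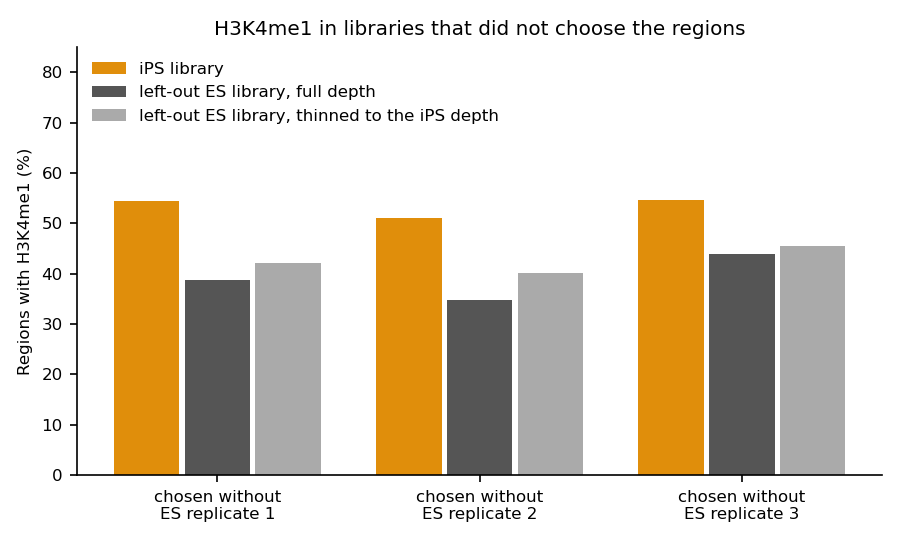
Share of regions with H3K4me1 of at least 2 RPM per kb and at least 2 times H3 plus 0.1 (y axis, %) for regions chosen without ES replicate 1, 2 or 3 (x axis), in the iPS library (orange), in the left-out ES library (dark grey) and in that library thinned to the iPS depth (light grey). The iPS bars stand at 54.4, 51.1 and 54.7%, above the dark grey bars at 38.7, 34.7 and 43.8%.

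Low acetylation and low p300 held at part of the regions in a left-out library. Chosen without H3K27ac replicate 1, 4966 regions were found, and that library was under 0.7 RPM per kb at 55.1% (53.7 to 56.5) of them, with a median of 0.676. Chosen without H3K27ac replicate 2, there were 4200, of which 67.7% (66.3 to 69.1) were under the limit in it, with a median of 0.470. Across all distal bins the means of these libraries were 0.249 and 0.217 RPM, and the medians 0.113 and 0. Over distal bins with ES H3K4me1 the medians were 1.69 and 1.53 RPM. Only 4.69% and 1.17% of the chosen regions reached 1.5 RPM per kb in the left-out library. For p300, the left-out replicate 1 or 2 was under 1 RPM per kb at 78.2% (76.9 to 79.6) of 3664 regions and 73.0% (71.5 to 74.3) of 3897 regions. The left-out p300 library had a median of 0.637 and 0.716 RPM per kb there. Its mean over all distal bins was 0.327 and 0.339, and its median 0.142 and 0.239. Over distal bins with ES H3K4me1 its median was 1.42 and 1.19.

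The surroundings showed where these bins lie. A bin next to a region failed at least 1 limit of the rule, which sets part of these shares. A bin next to the region had H3K27ac of at least 0.7 RPM in an ES library at 2054 regions (71.1%, 69.4 to 72.7), against 15.1% of all distal bins. The share was 97.0% of acetylated regions with p300. It was 46.1% of regions with p300 of at least 1.5 RPM and H3K27ac under 0.7 in each ES library. A bin that met the H3K4me1 limits and was not kept lay next to 1584 (54.8%, 53.0 to 56.6), where 4.95% of all distal bins had any bin with such H3K4me1 beside them. In the same classes, a bin with such H3K4me1 from outside the class lay next to 72.8% and 42.6% in that order. Strong acetylation, of at least 1.5 RPM in each ES library within 2 kb, flanked 745 regions (25.8%, 24.2 to 27.4), against 67.4% of acetylated regions with p300 and 5.45% of all distal bins. H3K4me3 of at least 1.5 RPM lay within 5 kb of 1170 (40.5%, 38.7 to 42.3), against 49.2% of acetylated regions with p300 and 13.6% of all distal bins. Neither held for 1385 regions (47.9%). No bin of either adjacent kind and neither of these neighbours was found at 435 regions (15.1%, 13.8 to 16.4), the ones that stood alone in the full sense of the name. The name H3K4me1-only therefore describes the kept bin and, for most regions, not the bins beside it.

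The median distance to the nearest H3K4me3 bin was 7 kb for the regions and 28 kb for all distal bins. For acetylated regions with p300 it was 6 kb, and for regions with p300 and H3K27ac under 0.7 RPM it was 12 kb. A short distance is thus not particular to the H3K4me1-only regions. To the nearest acetylated region with p300 the H3K4me1-only regions had a median of 38 kb, against 355 kb for all distal bins. The nearest other region of the set was a median of 92 kb away, and 1380 regions (47.8%) had none within 100 kb.

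Averaged over the regions of 1 bin, H3K4me1 formed a low hill on a broad base. The mean of ES replicate 1 was 2.39 RPM per kb within 500 bp of the centre, 1.84 at 500 to 1500 bp and 1.24 at 4 to 5 kb. Replicate 2 gave 2.21, 1.77 and 1.19, and replicate 3 gave 2.63, 2.02 and 1.27. At 859 regions of 1 bin with p300 of at least 1.5 RPM in each library and H3K27ac under 0.7 in each, the hill was narrower, at 2.53, 1.45 and 0.673 RPM per kb in replicate 1. The bins beside a region of 1 bin failed at least 1 limit of the rule, since they would have been joined to it otherwise, so the levels there are partly set by the choice. H3K27ac averaged 0.810 and 0.684 RPM per kb at 500 to 1500 bp and 1.12 and 1.19 at 4 to 5 kb in the 2 ES libraries. At the regions with p300 and no acetylation it averaged 0.494 and 0.415 at 500 to 1500 bp, and 0.478 and 0.497 at 4 to 5 kb. p300 averaged 1.03 and 1.07 RPM per kb at 500 to 1500 bp from H3K4me1-only centres, and 0.828 and 0.791 at 4 to 5 kb. H3 ran level, at 0.536 RPM per kb within 500 bp and 0.527 at 4 to 5 kb.

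**Figure D3:**
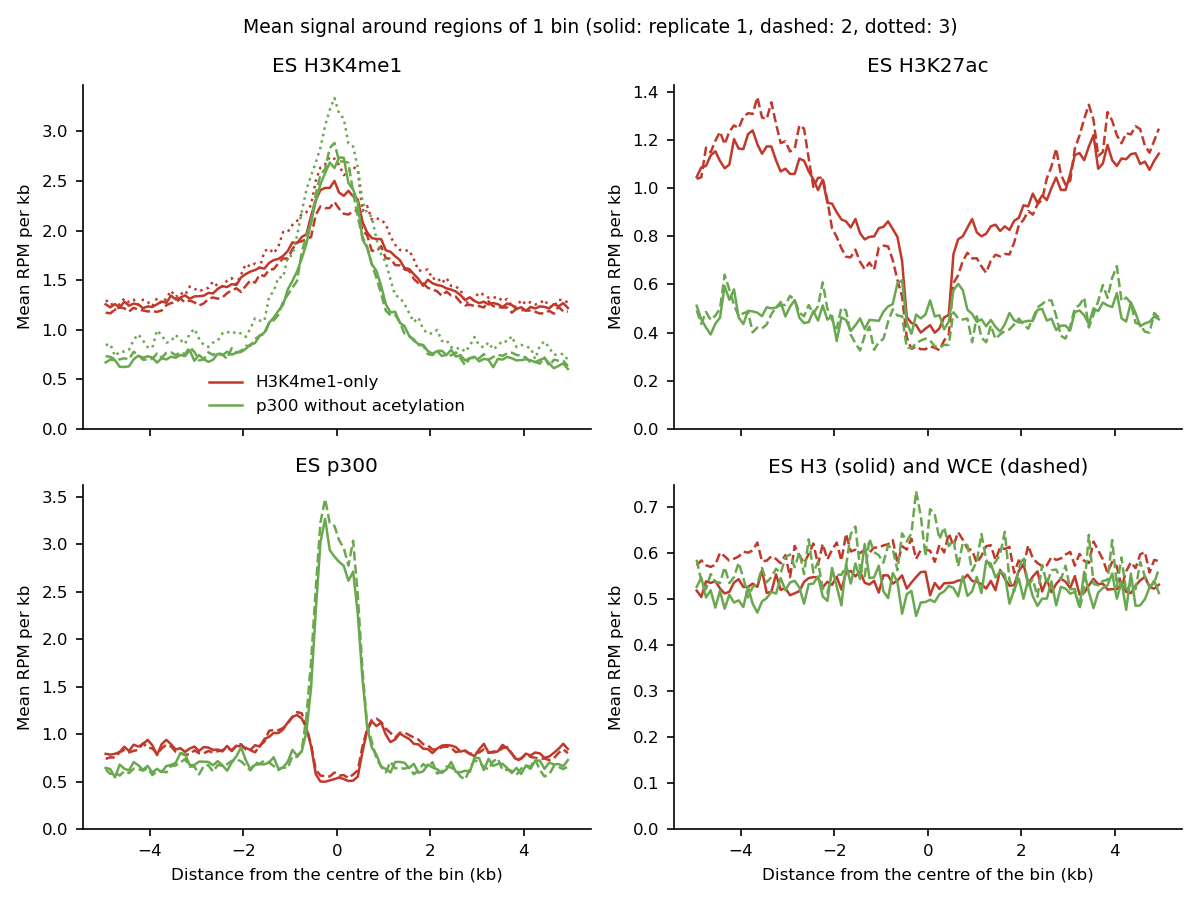
Mean RPM per kb (y axes) by distance from the centre of the bin in kb (x axes) at 2685 H3K4me1-only regions (red) and 859 regions with p300 and no acetylation (green), with 1 line per ES library. Red H3K4me1 lines fall from 2.39 (replicate 1, within 500 bp) to 1.24 at 4 to 5 kb; the dip of red H3K27ac and p300 lines within 500 bp is set by the rule, and their shoulders are set by it in part.

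The 5 regions with the most kept bins were broad domains. The widest, chr6:100199001-100222000, held 15 kept bins over 23000 bp. It had 3.15, 2.54 and 2.16 RPM per kb of H3K4me1 in ES replicates 1 to 3, 2.47 in iPS cells, 2.05 in liver and 0.987 in MEFs. Its H3K27ac was 0.376 and 0.282 RPM per kb in ES cells, 0.0672 in NPCs and 0.509 in liver, so that it was methylated in liver without reaching the level that counts as acetylated.

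The second, chr5:148848001-148857000, had 6 kept bins and 2.95, 2.73 and 1.83 RPM per kb in ES cells, 2.44 in iPS cells, 2.88 in liver and 1.01 in MEFs, with liver H3K27ac of 1.43. The third, chr1:167829001-167836000, had 5 kept bins and 3.50, 2.37 and 1.98 RPM per kb in ES cells, 2.50 in iPS cells, 1.16 in liver and 0.304 in MEFs. The remaining pair, chr1:129613001-129617000 and chr5:53881001-53885000, held 4 kept bins each and had 3.79 and 3.91 RPM per kb in ES replicate 1, against 2.03 and 1.63 in replicate 3. In all of these 5 domains, ES replicate 1 was the highest and replicate 3 the lowest of the ES libraries.

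Among the 31 regions of 3 or more bins, replicate 1 was the highest ES library at 26, and the medians were 2.95, 2.41 and 2.02 RPM per kb in replicates 1 to 3, against 2.28, 2.20 and 2.55 at regions of 1 bin. Their median liver H3K4me1 was 1.39 RPM per kb, against 0.405 at regions of 1 bin. Replicate 1 was also the highest of the 3 at 52.4% of the 445 regions with liver H3K4me1 of 2 RPM per kb or more, and at 27.8% of the 1572 regions with less than 0.5. At acetylated regions with p300 the same shares were 13.8% and 15.7%. These are values the rule used. Over the 2890 regions the Spearman correlation of replicates 1 and 3 was -0.44, in libraries whose mean chose the regions, and nothing is read from which one is highest.

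Some of the regions gathered in a few places. Of 2473 windows of 1 Mb, 1221 held a kept bin and 156 held 5 or more. The densest were 44 to 45 Mb of chromosome 13 with 26 kept bins among 179 distal bins with ES H3K4me1, 100 to 101 Mb of chromosome 6 with 24 of 140, and 53 to 54 Mb of chromosome 5 with 19 of 97. By chromosome, the kept bins were 3.02% of the distal ES H3K4me1 bins on chromosome 8, the lowest share, and 6.35% on chromosome 18, the highest.

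The 5 regions with the highest ES H3K4me1, ranked by the lowest of the 3 libraries, were single bins. The first, chr11:61356001-61357000, had 3.96, 3.99 and 3.99 RPM per kb in the ES replicates, 5.17 in iPS cells, 4.72 in liver and 0.138 in MEFs. Its H3K27ac was 0.451 and 0.587 RPM per kb in ES cells, 0.576 in NPCs and 6.06 in liver. A strongly acetylated bin lay within 2 kb of it in ES cells. The next, chr9:88131001-88132000, had 3.76, 3.67 and 6.06 RPM per kb in ES cells and 4.31 in iPS cells, but 0.270 in liver and 0.415 in MEFs, so the mark was called in the pluripotent cells alone. The region at chr8:125864001-125865000 was called in liver too. It had 4.16, 4.09 and 3.67 RPM per kb in ES cells, 2.15 in iPS cells, 2.83 in liver and 0.761 in MEFs. The region at chr7:24211001-24212000 was again called in the pluripotent cells alone. It had 3.66, 3.78 and 4.47 RPM per kb in ES cells, 4.31 in iPS cells, 0.810 in liver and 0.553 in MEFs. The last, chr13:44748001-44749000, lies in the densest window and had 4.06, 4.09 and 3.51 RPM per kb in ES cells, 2.58 in iPS cells, 3.91 in liver and 0.277 in MEFs. H3K4me3 lay within 5 kb of 4 of these 5 regions, the exception being the one on chromosome 11.

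How the regions fare in other cells was read from libraries that the rule did not use. A region was called marked in a library at 2 RPM per kb or more and at least 2 times the sum of 0.1 and H3 of the same cells, with ES H3 standing in for iPS cells and NPCs. In bulk chromatin, a mark in few cells and a low level in every cell cannot be told apart. With a single library per cell type the shares have no replicate check, and the differences between classes of region were not tested.

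iPS cells carried H3K4me1 at 1700 of the 2890 regions (58.8%, 57.02 to 60.6), against 91.4% (90.9 to 92.0) of acetylated regions with p300, 68.8% (65.6 to 71.7) of regions with p300 and no acetylation, and 4.27% of all distal bins. Part of that gap goes with the ES level. Within a mean ES H3K4me1 of 2 to 3 RPM per kb the share was 57.1% (55.2 to 58.9) of 2657 H3K4me1-only regions, against 75.2% (73.3 to 77.0) of 2168 acetylated regions with p300. Of the 221 H3K4me1-only regions at 3 to 4 RPM per kb, 77.8% (71.9 to 82.8) were marked in iPS cells. Of 688 regions with no marked or acetylated bin beside them it was 51.0% (47.3 to 54.7).

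Liver carried H3K4me1 at 429 regions (14.8%, 13.6 to 16.2), against 19.8% (19.1 to 20.6) of acetylated regions with p300, 5.61% (4.27 to 7.33) of regions with p300 and no acetylation, and 2.87% of all distal bins. MEFs carried it at 355 regions (12.3%, 11.1 to 13.5), against 32.6% (31.7 to 33.5), 10.98% (9.08 to 13.2) and 3.58% in the same order. At an ES level of 2 to 3 RPM per kb the liver share was 14.1% (12.8 to 15.5), next to 14.3% (12.8 to 15.8) of acetylated regions with p300, while the MEF share was 12.0% (10.8 to 13.3), against 24.5% (22.7 to 26.3). At 3 to 4 RPM per kb the liver share was 23.1% (18.0 to 29.1), against 17.2% (15.96 to 18.5), and the MEF share was 14.9% (10.8 to 20.2), against 30.0% (28.5 to 31.6). The bands are wide, and levels inside them were not matched. By width, liver carried H3K4me1 at 11 of 31 regions of 3 or more bins (35.5%, 21.1 to 53.1), at 24.7% (18.9 to 31.6) of regions of 2 bins and at 13.97% (12.7 to 15.3) of regions of 1 bin.

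The H3K4me1 patterns across iPS cells, liver and MEFs were mostly simple. The mark was called in iPS cells and neither of the others at 1290 regions (44.6%), and in none of the 3 at 905 (31.3%, 29.6 to 33.0). Of acetylated regions with p300 the shares were 53.4% and 5.46% (5.04 to 5.92). Of regions with p300 and no acetylation they were 57.7% and 27.6% (24.7 to 30.6). All 3 cell types carried the mark at 60 of the 2890 regions (2.08%). Where MEFs carried the mark, iPS cells carried it at 60.3% (55.1 to 65.2) of 355 regions, and where MEFs did not, at 58.6% (56.7 to 60.5) of 2535, so the iPS share was nearly the same with and without the mark in MEFs. No mark at all was called in iPS cells, liver, MEFs or NPCs at 882 regions (30.5%, 28.9 to 32.2). The share was 26.3% (23.5 to 29.3) of regions with p300 and no acetylation, and 5.16% (4.75 to 5.60) of acetylated regions with p300.

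ES cells are grown on MEFs, so the ES levels were set beside the MEF level. At the 54 regions with MEF H3K4me1 of 5 RPM per kb or more, the ES medians were 2.38, 2.10 and 2.87 RPM per kb in replicates 1 to 3. They were 2.28, 2.10 and 2.55 at the 1652 regions with MEF H3K4me1 under 0.5. Replicate 3 was the highest ES library at 61.1% of regions with 5 RPM per kb or more in MEFs, 52.4% with 2 to 5, 42.9% with 0.5 to 2 and 50.7% under 0.5, with no steady order. The rule used these ES values. The part that feeder cells have in the ES signal was not tested.

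**Figure D4:**
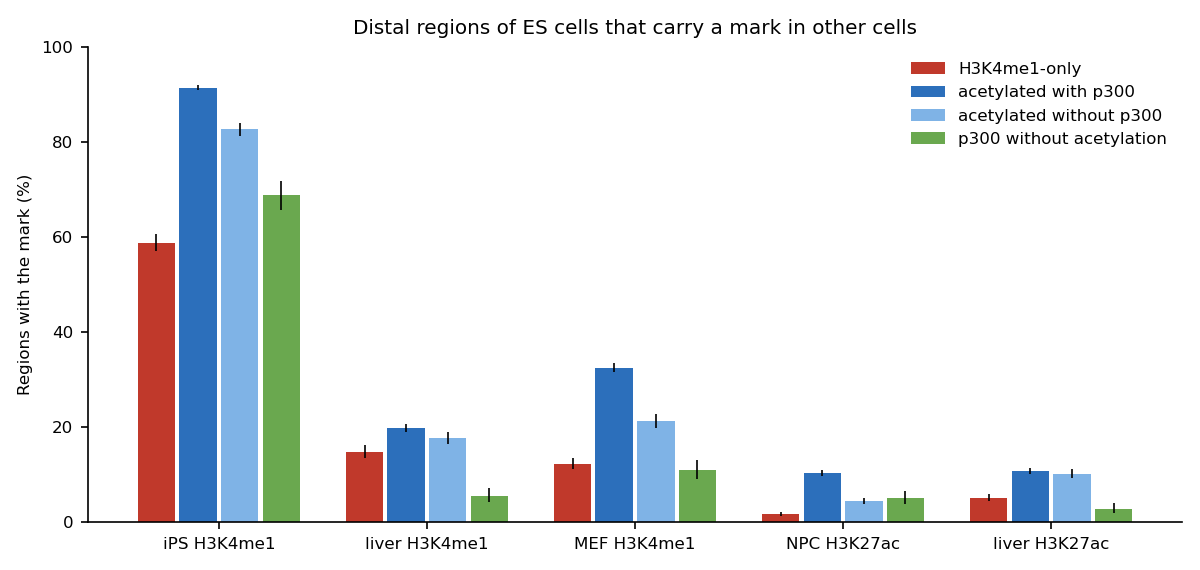
Share of regions (y axis, %) that carried H3K4me1 in iPS cells, liver and MEFs or H3K27ac in NPCs and liver (x axis), for H3K4me1-only regions (red) and 3 other classes of distal ES H3K4me1 region (blue, acetylated with p300; light blue, acetylated with p300 under 1 RPM in each library; green, p300 and no acetylation), with Wilson 95% intervals as error bars. The red bars stand at 58.8, 14.8, 12.3, 1.70 and 5.16%, each lower than the bar of acetylated regions with p300.

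H3K27ac appeared at few of the regions in the differentiated cells. NPCs had it at 49 regions (1.70%, 1.28 to 2.23), against 10.4% (9.83 to 11.01) of acetylated regions with p300, 5.03% (3.77 to 6.69) of regions with p300 and no acetylation, and 0.722% of all distal bins. Liver had it at 149 regions (5.16%, 4.41 to 6.02), against 10.8% (10.2 to 11.4), 2.86% (1.94 to 4.19) and 1.503% in the same order. H3K27ac was called in both NPCs and liver at 7 regions (0.242%), against 2.42% of acetylated regions with p300 and 0.229% of regions with p300 and no acetylation. In liver the acetyl mark went with the methyl mark. H3K27ac was called at 130 of the 429 regions with liver H3K4me1 (30.3%, 26.1 to 34.8) and at 19 of the 2461 without it (0.772%). Of acetylated regions with p300 that had liver H3K4me1, 48.2% (46.0 to 50.4) had liver H3K27ac. Across the 2890 regions the Spearman correlation of liver H3K4me1 with liver H3K27ac was 0.67, from 2 libraries of the same tissue.

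The 5 highest H3K27ac levels in NPCs were all at single bins. The first, chr7:35377001-35378000, had 19.5 RPM per kb of H3K27ac in NPCs, 0 in liver and 0.676 and 0.235 in ES cells. It carried 1.88, 2.20 and 2.87 RPM per kb of H3K4me1 in the ES replicates, 3.88 in iPS cells, 0 in liver and 0.623 in MEFs. Next came chr7:79373001-79374000 with 18.4 RPM per kb in NPCs and 0.587 in liver, and with 0.990, 1.78 and 3.51 RPM per kb of H3K4me1 in ES cells. At chr9:110050001-110051000 NPCs had 13.3 RPM per kb of H3K27ac and liver 0.587. That region was also among the better marked, with 3.46, 2.83 and 5.58 RPM per kb of H3K4me1 in ES cells and 6.03 in iPS cells. At chr10:24714001-24715000 and chr17:8869001-8870000 NPCs had 10.7 and 9.51 RPM per kb of H3K27ac, against 0 and 0.196 in liver. None of these 5 had a strongly acetylated bin within 2 kb in ES cells, and only the one at chr7:79373001-79374000 had H3K4me3 within 5 kb.

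Over the 49 regions acetylated in NPCs, the ES H3K4me1 medians were 2.28, 2.20 and 2.55 RPM per kb, beside 2.38, 2.20 and 2.55 over all 2890. MEF H3K4me1 was called at 17 of the 49 (34.7%, 22.9 to 48.7), and liver H3K4me1 also at 17.

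The 5 highest H3K27ac levels in liver were of similar size. At chr15:39644001-39645000 liver had 18.2 RPM per kb of H3K27ac and 7.29 of H3K4me1. ES cells had 0.676 and 0 RPM per kb of H3K27ac there and 1.58, 1.78 and 3.35 of H3K4me1, and NPC H3K27ac was 0.288. At chr2:24712001-24713000 NPCs had 0.144 RPM per kb of H3K27ac and liver 17.4, with liver H3K4me1 at 8.23. At chr4:131160001-131161000 NPCs had 0.144 and liver 15.1, with liver H3K4me1 at 8.77. At chr1:153101001-153102000 NPCs had 1.15 and liver 14.9, with liver H3K4me1 at 8.64 and MEF H3K4me1 at 3.53. At chr18:12781001-12784000, of 2 kept bins, NPCs had 0 and liver 14.5, with liver H3K4me1 at 6.28. Each of these 5 regions carried strong H3K4me1 in liver.

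Differences between cell types were tested with limma over 88136 distal regions with H3K4me1 in at least 1 of the 4 cell types, the 2890 regions included. Regions without ES H3K4me1 were tested because the iPS, MEF or liver library was high there, and the H3K4me1 contrasts compare those same libraries. The 2890 regions entered through ES cells. Their shares called thus differ from the shares over all tested regions partly by this choice. The ES replicates supply the spread, and the fit takes the single libraries to be as variable as those of ES cells. The H3K4me1 spread holds differences of line, transgene and passage, while the labels do not say whether the H3K27ac replicates were separate cultures. At the H3K4me1-only regions, that spread comes from libraries the rule used, and the effect of this on the p-values was not tested. The contrasts of H3K4me1 share the MEF library, so each is given by itself.

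For iPS minus MEF H3K4me1, 1279 of the 2890 regions (44.3%) were called higher in iPS cells at a Benjamini-Hochberg adjusted p of 0.05, where 29.1% of all tested regions were. Called lower were 152 (5.26%), where 34.9% of all were. The median log2 difference was 1.35 over the regions, 1.22 over the 30890 other tested regions with ES H3K4me1 and -0.19 over all. Those other ES regions were called higher at 50.5% and lower at 13.7%. On simulated counts this fit called unchanged regions in this contrast, so an adjusted p of 0.05 is not a controlled error rate here. The same limit holds for the named regions of this contrast below. The iPS library is much shallower than the MEF library. Limma-voom, which weights each value by the precision expected at its read count, called 1088 higher (27.8% of all) and 55 lower (23.8% of all). With all H3K4me1 libraries thinned to the iPS depth, chosen after seeing the data, 54 were higher (7.82% of all) and 2 lower (9.01% of all). Without ES replicate 2, 701 were higher (20.6% of all) and 72 lower (28.5% of all). Without replicate 1, 840 were higher (23.3% of all) and 102 lower (30.3% of all).

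The largest differences in favour of iPS cells came where MEFs had 0 to 2 reads. At chr16:50402001-50404000 iPS cells had 5.60 RPM per kb (26 reads) and MEFs 0, at least 54.0-fold higher in iPS cells when MEFs are set to 3 reads (limma adjusted p = 0.000651). ES cells had 1.58, 2.26 and 3.03 RPM per kb there. The log2 difference of the limma fit, after scaling, was 5.15 ± 0.51 (SE), a smaller fold than that RPM ratio. At chr9:64463001-64464000 iPS cells had 9.05 RPM per kb (21 reads) and MEFs 0, at least 43.6-fold higher (limma adjusted p = 0.000760). The log2 difference of the fit at that region of chromosome 9 was 4.85 ± 0.53 (SE), again a smaller fold than the RPM ratio. The next 3 regions had 1 or 2 MEF reads. At chr5:53860001-53865000, of 3 kept bins, iPS cells had 3.16 and MEFs 0.0461 RPM per kb, a ratio of 68.5 with an exact 95% counting interval of 16.8 to 601 (limma adjusted p = 0.000678). Thinned to the iPS depth, only the last of these kept an adjusted p under 0.05 among the 5 largest rises, at 0.0157.

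In the other direction, MEFs had strong H3K4me1 and iPS cells at most 1 read. At chr6:28777001-28778000 iPS cells had 0.431 and MEFs 7.40 RPM per kb, and at chr4:53438001-53439000 iPS cells had 0.431 and MEFs 6.64. The log2 differences were -3.91 ± 0.53 and -3.76 ± 0.59 (SE, limma adjusted p = 0.00127 and 0.00189). With 1 iPS read the counting intervals of the MEF over iPS ratios were wide, 3.02 to 685 and 2.70 to 615. At chr1:170252001-170253000 iPS cells had 0.431 and MEFs 6.23 RPM per kb, and at chr6:94161001-94162000 iPS cells had 0.431 and MEFs 5.81. At chr12:21609001-21610000 iPS cells had 0 and MEFs 3.25 RPM per kb, at least 2.52-fold lower in iPS cells. Thinned to the iPS depth, chr4:53438001-53439000 kept its call (adjusted p = 0.0400 in limma) and the other 4 did not, with 0.0530 to 0.330.

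For liver minus MEF H3K4me1, 479 regions (16.6%) were called higher in liver, where 25.8% of all tested regions were, and 377 (13.0%) lower, where 31.4% of all were. The median log2 difference was 0.06, against -0.20 over the other ES regions and -0.22 over all. Limma-voom called 466 higher (27.3% of all) and 190 lower (28.7% of all), and the thinned libraries gave 48 (10.4% of all) and 19 (9.68% of all). Without ES replicate 2, 201 were higher (19.4% of all) and 162 lower (23.3% of all). Without replicate 1, 280 were higher (21.5% of all) and 215 lower (25.5% of all).

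The region highest in liver by this contrast, chr15:58814001-58815000, had 5.67 RPM per kb in liver and 0 in MEFs, at least 27.3-fold higher in liver (limma adjusted p = 0.000949). It had 3.37, 5.14 and 2.87 RPM per kb in ES cells and 10.8 of H3K27ac in liver. At chr11:100733001-100734000 liver had 6.75 and MEFs 0.0692 RPM per kb, and liver H3K27ac was 2.74. At chr11:77585001-77586000 liver had 6.34 and MEFs 0.0692, and liver H3K27ac was 6.06. The other 2 of the 5 largest rises, chr1:163090001-163091000 and chr10:96084001-96085000, had 4.86 and 3.91 RPM per kb in liver, 0 in MEFs, and liver H3K27ac of 4.50 and 2.93. All 5 had liver H3K27ac, which 30.3% of the regions with liver H3K4me1 had. Thinned to the iPS depth, the pair at chr11:77585001-77586000 and chr10:96084001-96085000 kept an adjusted p under 0.05 (0.0399 and 0.0481 in limma), and the other 3 did not, with 0.0511 to 0.0942.

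The largest falls in liver were strongest in MEFs. At chr13:53240001-53241000 liver had 0 and MEFs 8.99 RPM per kb, at least 22.2-fold lower in liver (limma adjusted p = 0.000599), with 3.46, 4.62 and 4.94 in ES cells and 6.03 in iPS cells. At chr9:49674001-49675000 liver had 0.135 and MEFs 9.41 RPM per kb, -4.69 ± 0.47 as a log2 difference with its SE (adjusted p = 0.000761 in limma). At chr3:69607001-69608000, chr16:14289001-14290000 and chr11:52380001-52381000 liver had 0 and MEFs 5.74, 4.98 and 4.84 RPM per kb. In these 5 regions iPS cells had 1.72 to 6.03 RPM per kb, all above liver. Thinned to the iPS depth, 3 of the 5 kept their call (limma adjusted p of 0.0179 to 0.0479). The regions at chr3:69607001-69608000 and chr16:14289001-14290000 did not, with 0.127 and 0.0603.

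For NPC minus liver H3K27ac, 95 regions (3.29%) were called higher in NPCs, where 10.5% of all tested regions were, and 160 (5.54%) lower, where 12.4% of all were. The median log2 difference was 0.00, against 0.56 over the other ES regions, which were called higher at 17.1% and lower at 10.0%. These calls rest on 1 residual degree of freedom among the samples and on the scaling. With RPM scaling alone no region was called in either direction by limma, while 188 were higher (14.8% of all) and 437 lower (23.3% of all) at an unadjusted p under 0.05. Limma-voom called 51 higher (8.22% of all) and 115 lower (12.6% of all).

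The 5 largest rises in NPCs repeat 4 of the regions above and add chr8:110279001-110280000, with 7.93 RPM per kb in NPCs, 0 in liver, and 5.40 of MEF H3K4me1. The region chr7:35377001-35378000 was at least 33.1-fold higher in NPCs (limma adjusted p = 0.0281). The largest falls were chr18:12781001-12784000, at least 67.0-fold lower in NPCs, and chr8:24659001-24662000, of 3 kept bins, with 0 RPM per kb in NPCs and 5.28 in liver, at least 36.7-fold lower (limma adjusted p = 0.0281 for both). At chr4:117998001-117999000 NPCs had 0 and liver 10.8 RPM per kb. The 2 remaining falls were the regions of chromosomes 2 and 4 with liver H3K27ac of 17.4 and 15.1. The folds given here are RPM ratios, while the adjusted p comes from the fit after scaling. With RPM scaling alone, all 10 named regions of this contrast lost an adjusted p under 0.05 in limma.

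**Figure D5:**
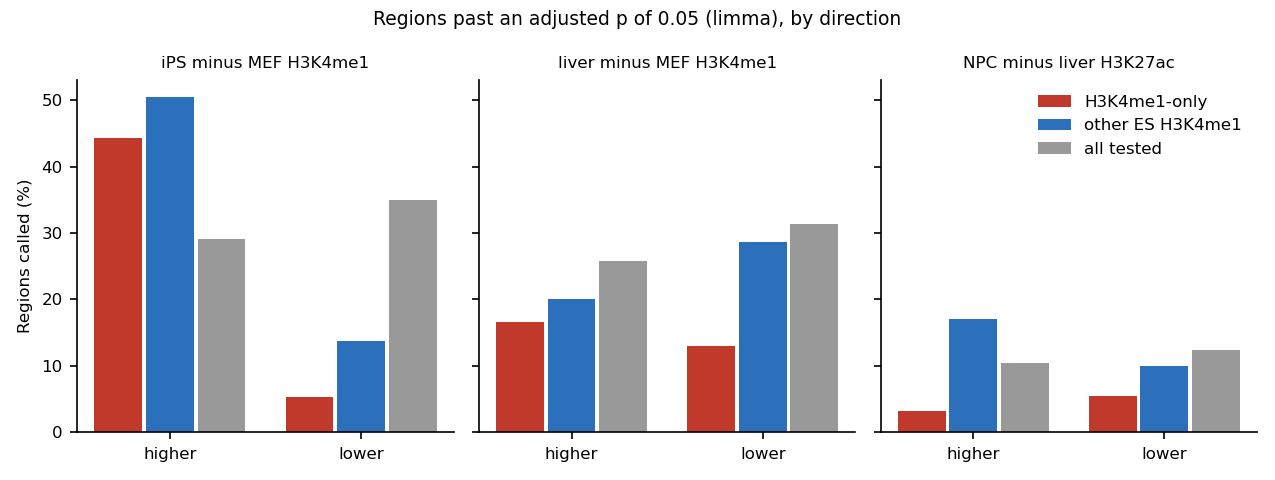
Share of regions called higher or lower (x axes) by limma at an adjusted p of 0.05 (y axis, %) in 3 contrasts, for H3K4me1-only regions (red), other tested regions with ES H3K4me1 (blue) and all 88136 tested regions (grey). Red bars stand at 44.3 and 5.26% for iPS minus MEF, at 16.6 and 13.0% for liver minus MEF and at 3.29 and 5.54% for NPC minus liver.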

How the data were processed

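Each deposited file lists the aligned reads of 1 library as signed positions by chromosome, where a minus marks the reverse strand, per the file headers. The values the authors deposited are other than counts or a normalised signal. Neither the aligner nor the genome build is stated in the sources used here, and the largest positions lay within mm8 chromosome lengths. Fragments had a mean of 500 bp after sonication, and 18 cycles of PCR and a gel cut at 200 to 350 bp followed, per the labels. The reference tables at hand were of another build, so no gene, annotation or sequence was attached.

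Reads were counted once per position and strand, moved 100 bp toward the fragment centre and counted in 1 kb bins, with library totals over the autosomes, X and Y. Counts over kept bins were tested with limma 3.58.1 (R 4.3.3): log2 CPM with a prior count of 2, trimmed mean of M-values scaling, limma-trend with Benjamini-Hochberg adjustment over all tested regions. The H3K4me1 fit held 6 libraries and the H3K27ac fit 4. On simulated counts limma-trend called unchanged regions in the iPS to MEF contrast, where depths differ most, and limma-voom rarely did; it is printed beside it. Other steps used Python 3.11.15, numpy 2.4.6 and matplotlib 3.10.9.

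Named regions were the 5 with most kept bins, the 5 highest in ES H3K4me1 by the lowest library, the 5 highest in NPC and in liver H3K27ac with at least 10 reads, and the 5 largest rises and falls past an adjusted p of 0.05 per contrast among regions whose average log2 CPM exceeded the median over all tested. The members, classes and rules were chosen with earlier results of these data known. ES p300 replicate 2 is called p301 in 1 label field and was used as p300. Alternatives changed the limits, the bins, repeated reads, the scaling, the filter, the prior count and the test, and left out each ES library.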

Additional observations from a re-analysis of the deposited data

Results flagged for a closer look

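The NPC Rfx1 library, which no comparison above uses, had reads above the 3 that a count of 0 allows at a few of the regions. Regions with at least 5 reads numbered 3 of 2890 (0.104%), against 0.144% of all distal bins and 3.66% of acetylated regions with p300. They were chr7:79373001-79374000 with 9 reads (12.8 RPM per kb), chr14:119492001-119493000 with 6 and chr15:102838001-102839000 with 6 (8.51 RPM per kb each). The first also had 18.4 RPM per kb of NPC H3K27ac, while the other 2 had 0.288 and 0.576. At 85.8% of the regions the library had no read.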

How the results depend on the processing

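Number of regions: an H3K27ac limit of 0.5 or 1 RPM gave 1538 and 5290, a p300 limit of 0.7 gave 1283, an H3K4me1 minimum of 3 gave 266, and regions with no marked bin beside them, an addition made after seeing the data, numbered 688. Leaving out each ES library gave 2810 to 4966. Shares with iPS H3K4me1 were 61.7% (H3K27ac limit of 1), 80.8% (minimum of 3), 71.3% and 31.1% (mark called at 1.5 and at 3 RPM per kb), 51.0% (no marked bin beside), 62.0% (all repeated reads) and 51.1 to 62.8% without single libraries. Shares with MEF H3K4me1 were 11.1% and 14.3% (H3K27ac limits of 0.5 and 1), 9.51% (p300 limit), 14.3% (minimum of 3), 16.3% and 6.89% (1.5 and 3), 13.8% (no marked bin beside) and 10.8 to 14.0% without single libraries. Shares with liver H3K4me1 were 17.4% (p300 limit), 25.9% (minimum of 3), 18.2% and 8.72% (1.5 and 3), 13.4% (bins moved by 500 bp) and 12.7 to 17.1%. Shares with NPC H3K27ac were 1.13% (minimum of 3), 2.25% and 1.00% (1.5 and 3), 2.91% (no marked bin beside), 1.10% (all repeated reads) and 1.42 to 2.05%. Shares with liver H3K27ac were 7.14% (minimum of 3), 7.27% and 2.87% (1.5 and 3), 4.18% (bins moved) and 4.57 to 5.96%. Thinned to the iPS depth, the MEF and liver shares were 13.5% and 15.0%.

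In limma, RPM scaling alone gave 75 regions lower in iPS than MEF (29.1% of all tested) and 0 in either direction for NPC minus liver. A prior count of 0.5 gave 95 lower in NPCs, where the main settings gave 160 (12.4% of all tested). The share of all tested regions at that prior count is not given here, so nothing about the regions is read from the 95. Limma-voom gave 55 and 190 lower in iPS and liver than MEF and 51 higher in NPCs. Thinning gave 54 and 2 for iPS minus MEF and 48 and 19 for liver minus MEF. Leaving out ES libraries gave 701 to 1099 higher (20.6% to 25.7% of all tested) and 72 to 210 lower (28.5% to 37.7% of all) for iPS minus MEF. For liver minus MEF it gave 201 to 542 higher and 162 to 348 lower, beside 479 (25.8% of all) and 377 (31.4% of all) in the main fit. At the low ends of these ranges, 19.4% and 23.3% of all tested regions were called. The shares of all at the high ends are not given here, so nothing is read from those counts. Over the tested regions the median iPS minus MEF log2 difference was -0.19 with the main scaling, 0.15 with RPM scaling and -0.46 with the median of ratios. Of 260 alternative values of named regions, 236 kept their direction with an adjusted p under 0.05, 24 lost that call and 0 reversed. The causes were not tested.

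Leaving out an H3K27ac library was not run for NPC minus liver, since no residual degree of freedom would remain. No paired analysis was possible because shared replicate numbers join only H3K27ac, p300 and H3K4me1 libraries of ES cells, which no test compares. A count of 3 reads or fewer limits what the iPS library can show at 1 bin.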
